A study of Mus musculus with 5 samples.

Results

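In mouse bone marrow mesenchymal stem cells (MSC), 36 genes had at least 1 probe set that was higher and at least 1 that was lower after co-culture with activated T cells. A probe set is the group of short probes that together give 1 value for a stretch of a transcript, and many genes are covered by several. The 36 genes were taken from the 557 genes with 2 or more probe sets that carry a single gene symbol, after genes with symbols starting with Kif, Hnrnp, Exoc, Slc, Usp, Rab or Eif were left out. They made up 6.46% of those 557 genes, and the remaining 521 moved in 1 direction in all their probe sets in the table. The sign of the difference between the group means chose the 36 genes, so their differences are given as a description, with no test. All RNA came from primary cultures of MSC purified from mouse bone marrow. Strain, sex and age are not given in the sources used here. There were 3 arrays of MSC alone and 2 of MSC kept for 48 h in a transwell with 10 T cells per MSC, the T cells having been activated through CD3 and CD28, and each array is labelled as its own biological repetition. The membrane of a transwell separates the cell populations and lets soluble products through.

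One gene can give several transcript forms. Exons can be joined in different ways (alternative splicing), transcription can begin at different places, and cleavage and addition of the poly(A) tail can occur at different sites (alternative polyadenylation). Arrays of this kind place most probes toward the 3′ end of a transcript, so probe sets of 1 gene can read different ends or exons. A shift between transcript isoforms is one way in which probe sets of a gene can move oppositely, and the values below are described as possible shifts of that kind. The positions of the probes were not used here, no isoform was measured, and the reason for any of the opposite moves was not tested.

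The deposited table held 3373 probe sets with RMA values on the log2 scale, and in all 3373 the groups did not overlap. limma, a linear model with a spread shared between probe sets, called 3373 of 3373 probe sets at an adjusted p under 0.05 (100%), 48.7% of them higher and 51.3% lower in co-culture, and the table is treated here as selected on this contrast. Of the 7 MSC markers in the table (12 were listed), 5 were lower in co-culture (Pdgfrb, Cd44, Cxcl12, Col1a1 and Col3a1) and 2 higher (Pdgfra and Vcam1), and the mean of the 7 lay between 10.50 and 10.71 in MSC alone and at 9.38 and 9.26 in co-culture. Of 11 macrophage markers the table held Mpeg1 and Ctss, with a mean level between 3.74 and 4.24 in MSC alone and of 8.03 and 7.35 in co-culture replicates 1 and 2, and their part in the results was not tested. The 15 T cell, 5 endothelial and 7 B cell and granulocyte markers were not analysed here, as 0 of each were in the table. In RNA from a whole culture, fewer cells of a type and less RNA per cell cannot be told apart. A pair of control transcripts had probe sets whose identifiers mark the 3′ end and the middle. For the transferrin receptor the 3′ value exceeded the middle value by 2.13, 2.05 and 2.03 in MSC alone, in order of replicate, and by 2.12 and 2.27 in co-culture, where replicate 2 lay just above the range of MSC alone. For pyruvate carboxylase the excess was 1.18, 1.04 and 1.29 in MSC alone and 1.07 and 1.13 in co-culture, inside the span of its values in MSC alone, and the part of RNA quality in the results was not tested further.

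The 36 genes had 89 probe sets, of which 46 were higher and 43 lower in co-culture. As 100% of the table was called, a call of all 89 carries no information about these genes, and the groups did not overlap in any of them. Differences ranged from a rise of 2.38 to a fall of -2.35 on the log2 scale. The median absolute difference was 0.90, against 1.16 over all 3373 probe sets and 1.30 over the probe sets of the 521 genes that moved in 1 direction. A difference of at least 2-fold was found in 36 of the 89 probe sets (40.4%) and in 62.7% of the whole table. The gap of a gene, its largest rise minus its deepest fall, had a median of 1.91 and ran from 1.07 in Zbtb44 to 3.57 in Ahnak. In 4 genes, Ahnak, Ids, Ube2d3 and Marchf5, both the rise and the fall were at least 2-fold. The fall was the larger side in 20 genes and the rise in 16. The plot of differences shows the probe sets of each gene on both sides of 0.

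**Figure D1:**
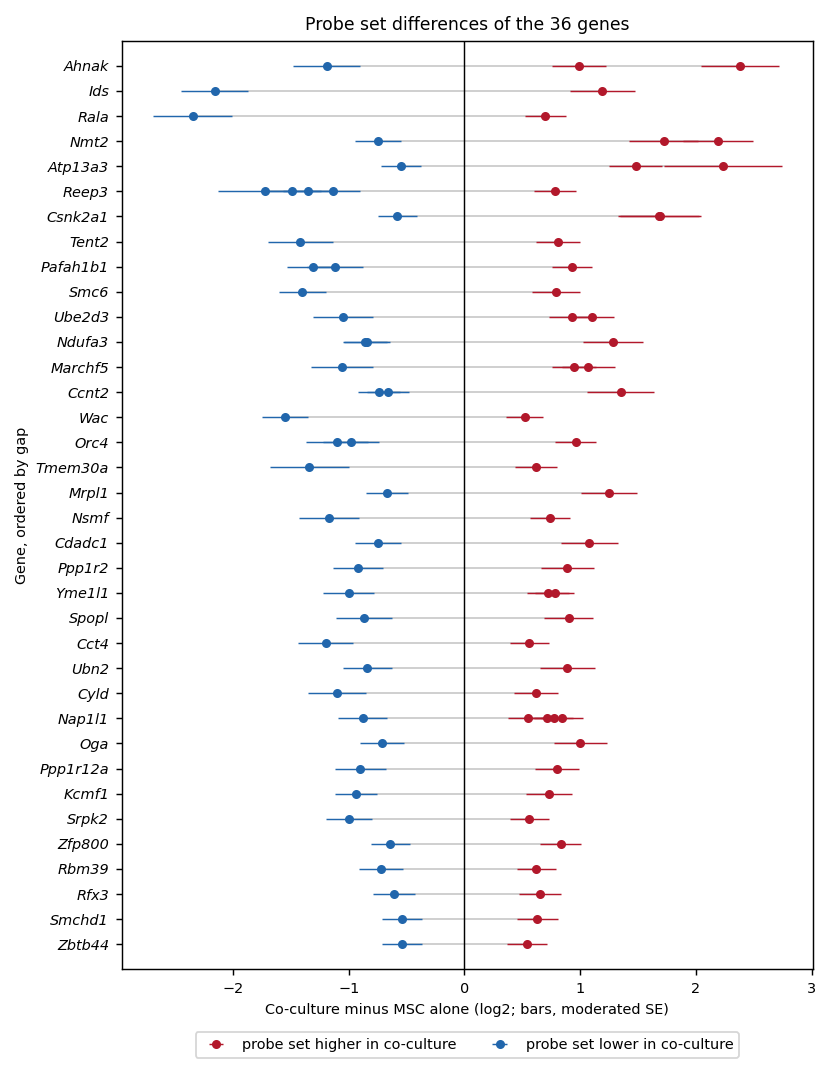
Difference of co-culture minus MSC alone (x axis, log2, bars are limma's moderated SE) for each of the 89 probe sets of the 36 genes (y axis, ordered by gap). Red points are the 46 probe sets higher in co-culture and blue points the 43 lower ones; the gap shrinks from 3.57 in Ahnak at the top to 1.07 in Zbtb44 at the bottom.

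Genes of membranes, the lysosome and the cytoskeleton (6 genes) had gaps from 1.95 to 3.57. Ahnak and Ids of this group had the largest gaps of all, followed by Rala and Nmt2 of the signalling group below. In Ahnak, the gene of a giant scaffold protein under the plasma membrane that also has a short form, probe set 1428057_a_at read 5.38, 5.40 and 4.93 in MSC alone and 7.10 and 8.12 in co-culture, in order of replicate. Probe set 1428058_at read 5.65, 5.69 and 5.13 in MSC alone and 6.42 and 6.55 in co-culture. Probe set 1452217_at went the other way, with 12.61, 12.29 and 11.85 in MSC alone and 11.30 and 10.81 in co-culture. Both co-culture arrays lay above all MSC arrays in the first pair and below them in the third probe set, and co-culture replicate 2 lay farther from MSC alone than replicate 1 in all 3. Probe set 1428057_a_at rose by 2.38 ± 0.34 (SE), the second rose by 0.99 ± 0.23 (SE) and the third fell by 1.19 ± 0.29 (SE) on the log2 scale. The gap of 3.57 equals an 11.8-fold change in the ratio of the outermost probe sets, and with a single co-culture array kept the gap was 2.81 (replicate 1) or 4.32 (replicate 2). By their mean over all arrays, the rising probe sets of Ahnak were among the dimmest 25% of the table. Levels of different probe sets cannot be set against each other, because probes differ in how strongly they bind, so only changes are compared between them.

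Ids encodes iduronate 2-sulfatase, a lysosomal enzyme that degrades heparan and dermatan sulfate. Its probe set 1455481_at read 10.94, 10.75 and 11.57 in MSC alone and 9.08 and 8.78 in co-culture. Probe set 1427813_at read 3.30, 3.25 and 3.18 in MSC alone and 4.005 and 4.86 in co-culture. The first fell by 2.16 ± 0.29 (SE), while the second rose by 1.19 ± 0.28 (SE). In MSC alone the second had the lowest values of all member probe sets, down to 3.18. At such levels RMA compresses differences and no detection call is given. Atp13a3, a P-type ATPase gene linked to polyamine transport, had 2 rising probe sets and 1 falling. Its probe set 1443868_at read 5.11, 5.52 and 5.37 in MSC alone and 6.65 and 8.47 in co-culture, and the co-culture replicates stood far apart. The rise was 2.23 ± 0.51 (SE), 3.14 without co-culture replicate 1 and 1.32 without replicate 2. Probe set 1442145_at rose by 1.48 ± 0.23 (SE). Probe set 1434513_at, with 8.57, 8.40 and 8.53 in MSC alone and 7.93 and 7.96 in co-culture, fell by 0.55 ± 0.17 (SE).

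Reep3, which encodes a protein that shapes the endoplasmic reticulum, had 5 probe sets, 4 falling and 1 rising. The rising probe set 1424779_at read 8.22, 8.36 and 8.22 in MSC alone and 9.18 and 8.91 in co-culture. The deepest fall was that of 1433976_at, with 8.76, 8.48 and 7.998 in MSC alone and 7.29 and 6.09 in co-culture. It fell by 1.72 ± 0.41 (SE), with -2.32 without co-culture replicate 1 and -1.12 without replicate 2, while the rising probe set rose by 0.78 ± 0.18 (SE). The falling probe sets 1424780_a_at, 1424781_at and 1424778_at, which carry the same sequence accession in the platform's annotation as the rising one, changed by -1.49, -1.35 and -1.14. Pafah1b1 encodes LIS1, a regulator of the motor dynein. Its probe set 1460199_a_at read 10.38, 10.42 and 10.37 in MSC alone and 11.19 and 11.44 in co-culture, and 1417086_at read 8.66, 8.19 and 8.63 in MSC alone and 7.27 and 7.10 in co-culture. On the log2 scale 1460199_a_at rose by 0.93 ± 0.17 (SE), the second fell by 1.31 ± 0.22 (SE), and the third probe set, 1448578_at, fell by 1.12 ± 0.24 (SE). Tmem30a, encoding a subunit of phospholipid flippases, rose by 0.62 in 1 probe set and fell by 1.34 in the other.

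**Figure D2:**
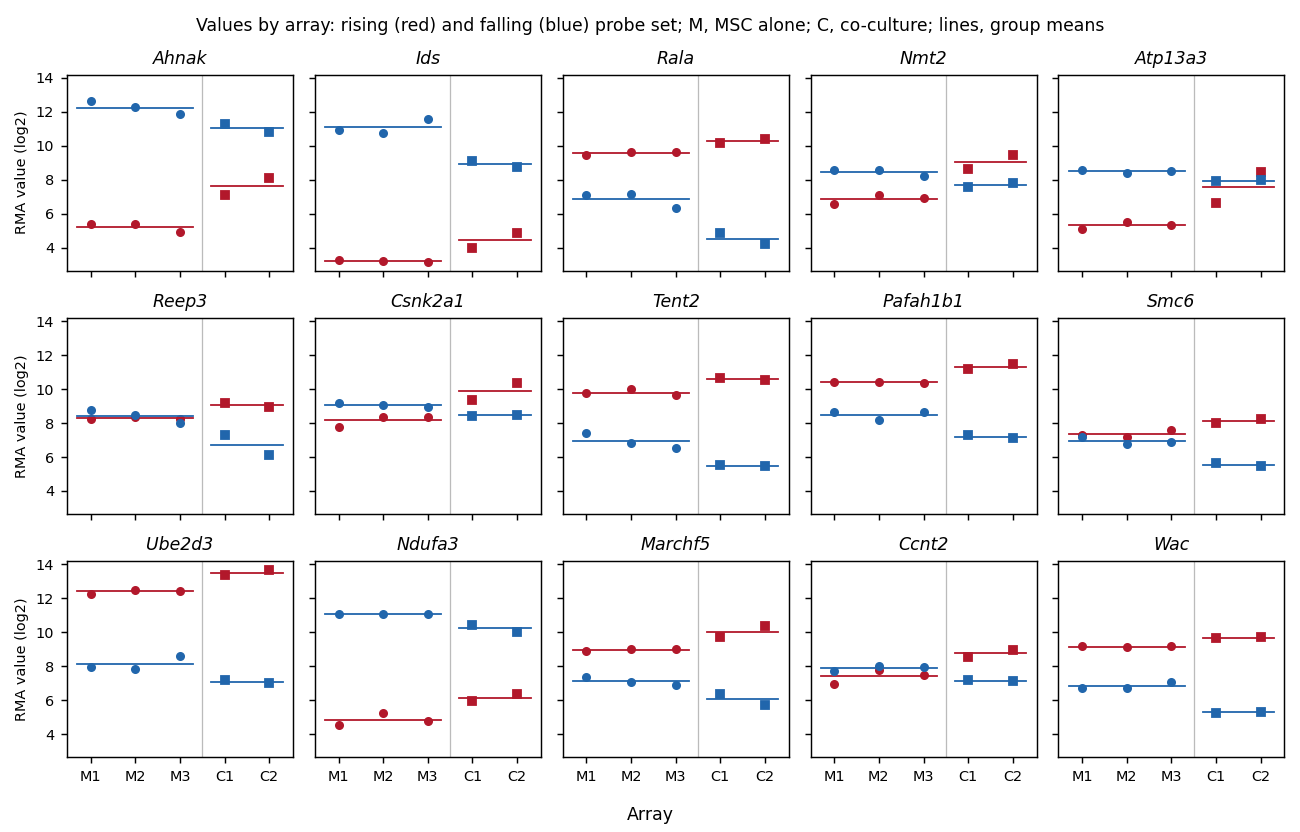
RMA values (y axis, log2) on each array (x axis; M1 to M3, MSC alone; C1 and C2, co-culture) for the 15 genes with the largest gaps, with the highest-rising probe set in red and the deepest-falling in blue and lines at the group means. Red squares lie above red circles and blue squares below blue circles in all 15 panels, as the selection of the table requires; heights of red and blue points cannot be compared with each other.

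Of the 7 genes of signalling and protein modification (gaps from 1.69 to 3.05), Rala had the largest gap. Rala encodes a Ras-like small GTPase that acts on vesicle exocytosis. Its probe set 1423137_at read 9.48, 9.67 and 9.64 in MSC alone and 10.16 and 10.43 in co-culture. Probe set 1450870_at, which carries the same sequence accession, read 7.11, 7.18 and 6.36 in MSC alone and 4.87 and 4.20 in co-culture. With these values 1423137_at rose by 0.70 ± 0.18 (SE) and 1450870_at fell by 2.35 ± 0.34 (SE), and RefSeq lists 1 transcript of the gene. By its mean over all arrays, 1450870_at was among the dimmest 25% of the table. In Nmt2, the gene of an N-myristoyltransferase, which attaches a fatty acid to proteins, probe set 1423581_at read 6.56, 7.11 and 6.91 in MSC alone and 8.65 and 9.46 in co-culture, and it rose by 2.19 ± 0.30 (SE). Probe set 1438740_at rose by 1.72 ± 0.30 (SE). Probe set 1454919_at read 8.59, 8.57 and 8.24 in MSC alone and 7.59 and 7.83 in co-culture, and it fell by 0.75 ± 0.20 (SE).

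Csnk2a1 encodes a catalytic subunit of casein kinase 2. Its probe set 1419034_at read 7.79, 8.38 and 8.35 in MSC alone and 9.36 and 10.36 in co-culture, with co-culture replicate 2 the higher. The falling probe set 1419037_at read 9.15, 9.03 and 8.92 in MSC alone and 8.42 and 8.49 in co-culture. Of these, 1419034_at rose by 1.69 ± 0.35 (SE), as did 1419035_s_at by 1.68, and the other fell by 0.58 ± 0.17 (SE). The remaining 4 genes of this group had 2 probe sets each. Oga, encoding the enzyme that removes O-GlcNAc from proteins, rose by 1.00 in one and fell by 0.71 in the other. Nsmf, a gene of synapse-to-nucleus signalling, rose by 0.74 and fell by 1.17. Ppp1r2, encoding an inhibitor of protein phosphatase 1, rose by 0.89 and fell by 0.92. Ppp1r12a, encoding the targeting subunit of myosin phosphatase, rose by 0.80 and fell by 0.90.

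The 5 genes of the ubiquitin system had gaps from 1.67 to 2.15, with 7 rising and 5 falling probe sets. Ube2d3 encodes a ubiquitin-conjugating enzyme. Its probe set 1455479_a_at read 12.27, 12.50 and 12.45 in MSC alone and 13.34 and 13.67 in co-culture, and 1450859_s_at read 7.98, 7.83 and 8.57 in MSC alone and 7.17 and 6.98 in co-culture. The first rose by 1.10 ± 0.19 (SE), 1455480_s_at rose by 0.93 ± 0.20 (SE), and the second fell by 1.05 ± 0.26 (SE). Identifiers ending in _s_at mark probes shared by several transcripts, so these values are uncertain. Marchf5 encodes a ubiquitin ligase of the mitochondrial outer membrane. Its probe set 1452925_a_at read 8.88, 9.04 and 8.99 in MSC alone and 9.73 and 10.34 in co-culture, and 1429910_at read 7.35, 7.08 and 6.88 in MSC alone and 6.38 and 5.71 in co-culture. They rose by 1.07 and fell by 1.06, and a further probe set, 1428843_at, rose by 0.95. Cyld encodes a deubiquitinase that restrains NF-kB signalling. It rose by 0.62 in 1 probe set and fell by 1.10 in the other. Spopl, encoding an adaptor of cullin-3 ligases, rose by 0.90 and fell by 0.87. Kcmf1, a ubiquitin ligase gene, rose by 0.73 and fell by 0.94 in probe sets of the same accession.

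Among 8 genes of transcription and RNA (gaps from 1.07 to 2.24) was Tent2, an enzyme gene that acts on RNA itself. It encodes GLD-2, a poly(A) polymerase outside the main cleavage complex. Its probe set 1419183_at read 9.74, 10.001 and 9.62 in MSC alone and 10.66 and 10.53 in co-culture, and 1433568_at read 7.40, 6.80 and 6.55 in MSC alone and 5.52 and 5.48 in co-culture. So 1419183_at rose by 0.81 ± 0.19 (SE) and 1433568_at fell by 1.42 ± 0.28 (SE). Ccnt2 encodes cyclin T2, a partner of the kinase that releases paused RNA polymerase II. Its probe set 1427088_at read 6.96, 7.76 and 7.47 in MSC alone and 8.54 and 8.95 in co-culture, and 1435445_at read 7.71, 8.02 and 7.97 in MSC alone and 7.18 and 7.13 in co-culture. The first rose by 1.35 ± 0.29 (SE) and the second fell by 0.74 ± 0.18 (SE). The remaining probe set, 1452297_at, shares its accession with the rising one and fell by 0.66 ± 0.18 (SE), and RefSeq lists 1 transcript. Wac encodes an adaptor in histone H2B ubiquitination. Its probe set 1451494_at read 9.18, 9.10 and 9.17 in MSC alone and 9.65 and 9.70 in co-culture, and 1439249_at read 6.71, 6.70 and 7.08 in MSC alone and 5.23 and 5.33 in co-culture. The fall was the larger side, with a difference of -1.55 ± 0.20 (SE) against 0.52 ± 0.16 for the rise. After quantile normalization of the deposited values these differences were -1.20 and 0.33.

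Splicing itself was represented by Rbm39, a splicing factor gene, which rose by 0.62 and fell by 0.72, and by Srpk2, the gene of a kinase of serine- and arginine-rich splicing factors, which rose by 0.56 and fell by 1.00. RefSeq lists 43 transcripts of Rbm39 and 42 of Srpk2 with predicted ones included, the highest numbers of the 36 genes. Of these, 10 and 7 are curated. The transcription factor gene Rfx3 rose by 0.65 and fell by 0.61, and the zinc finger genes Zfp800 and Zbtb44 are the others of the group. Zfp800 rose by 0.83 and fell by 0.64. All 4 probe sets of Rfx3 and Zfp800 lay under 6 in both groups.

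The 6 genes of chromatin and DNA had gaps from 1.17 to 2.19. Smc6, a subunit of the SMC5/6 complex that acts in DNA repair, had the largest. Its probe set 1422910_s_at read 7.28, 7.16 and 7.56 in MSC alone and 7.99 and 8.25 in co-culture, and 1448829_at read 7.15, 6.76 and 6.88 in MSC alone and 5.63 and 5.45 in co-culture. The former rose by 0.79 ± 0.21 (SE) and the latter fell by 1.40 ± 0.20 (SE). Nap1l1, encoding a histone chaperone, had 5 probe sets, 4 rising by 0.55 to 0.84 and 1, 1420477_at, that fell by 0.88 ± 0.21 (SE). The falling probe set shares its accession with 1420476_a_at and 1420479_a_at, which rose by 0.77 and rose by 0.84. Orc4, a subunit of the origin recognition complex, rose by 0.96 in 1 probe set, fell by 1.10 in another and fell by 0.98 in the third. Ubn2, a gene of histone H3.3 deposition, rose by 0.89 and fell by 0.84. Cdadc1, a cytidine deaminase family gene, rose by 1.08 and fell by 0.75. Smchd1, which acts in X chromosome inactivation, rose by 0.63 and fell by 0.54.

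The group of mitochondria held 3 genes, with Marchf5 counted in the ubiquitin system above. Ndufa3 encodes a subunit of respiratory complex I. Its probe set 1430149_at read 4.57, 5.22 and 4.79 in MSC alone and 5.94 and 6.35 in co-culture, and 1428464_at read 11.10, 11.09 and 11.04 in MSC alone and 10.40 and 10.04 in co-culture. The first rose by 1.28 ± 0.26 (SE) from low values, the second fell by 0.86 ± 0.19 (SE), and 1452790_x_at fell by 0.84 ± 0.20 (SE). Mrpl1, encoding a mitochondrial ribosomal protein, rose by 1.25 and fell by 0.67 in probe sets of the same accession. Yme1l1, encoding a protease of the mitochondrial inner membrane, rose by 0.78 and rose by 0.72 in 2 probe sets and fell by 1.00 in the third. Cct4, a subunit of the cytosolic chaperonin, rose by 0.56 and fell by 1.20, the latter from a mean of 5.09 in MSC alone.

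The genes just inside the rule were Rfx3, Smchd1 and Zbtb44, with gaps of 1.26, 1.17 and 1.07. Zbtb44 rose by 0.54 and fell by 0.54. The rule asks only for a difference above and a difference below 0, but the smallest absolute difference in the table was 0.47, so no probe set lay close to 0 on either side. A gene with 1 changed and 1 unchanged probe set cannot appear among the 36. The 521 genes of 1 direction also had probe sets that differed in size: their spread, highest minus lowest difference, had a median of 0.32 and reached 4.24 in Tap1, and 70 of them had a spread of at least the smallest gap of the 36 genes.

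The change was next followed within each array, as the highest-rising minus the deepest-falling probe set of a gene. Adding a constant to a whole array does not change this ratio, while quantile normalization can. Set against each gene's mean in MSC alone, its median over the 36 genes was -0.21, 0.12 and 0.04 on the arrays of MSC alone, in order of replicate, against 1.69 and 2.18 on those of co-culture. The single values lay between -0.54 and 0.57 in MSC alone and between 1.00 and 4.32 in co-culture, a separation that the choice of the genes fixes. What the choice did not fix is the order within a group. In MSC alone the ratio was lowest in replicate 1 for 26 genes, in replicate 3 for 8 and in replicate 2 for 2. In co-culture it was higher in replicate 2 than in replicate 1 in 32 genes, the exceptions being Tent2, Wac, Zfp800 and Smchd1. The order in co-culture was also that of the table as a whole. Co-culture replicate 2 lay farther from MSC alone than replicate 1 in 76.1% of the rising and 72.1% of the falling probe sets of the 36 genes. Among all 3373 the shares were 71.1% and 77.5%. The order in MSC alone was not set beside that of the whole table.

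**Figure D3:**
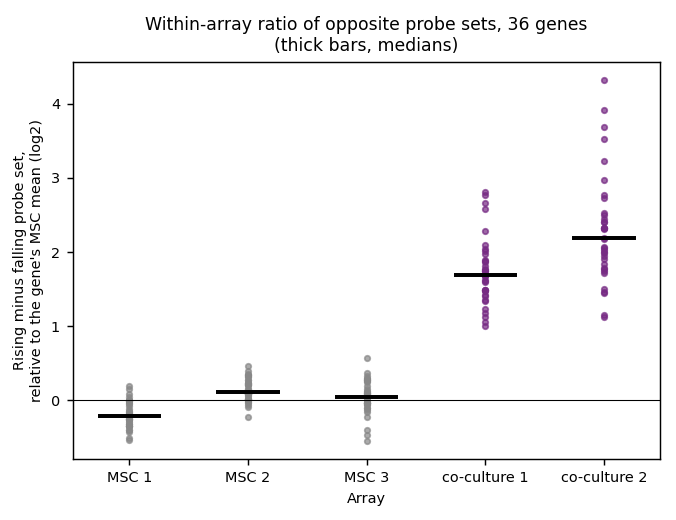
Ratio of the highest-rising to the deepest-falling probe set of each of the 36 genes (y axis, log2, relative to the gene's mean in MSC alone) on each array (x axis); points are genes and thick bars medians. The medians are -0.21, 0.12 and 0.04 in MSC alone and 1.69 and 2.18 in co-culture, and the points of the groups do not overlap because the genes were chosen that way.

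Features of the 36 genes were then compared with those of the 521 genes of 1 direction, as descriptions without a test. The number of probe sets is tied to the rule, as each added probe set can bring an opposite sign. Of the 36 genes 13 had 3 or more probe sets; the share with opposite moves was 5.82% among genes with 2 probe sets, 8.66% among genes with 3, and 5.71% (2 of 35) among genes with 4 or more. Identifiers ending in _a_at mark probe sets that read several transcripts of 1 gene. They made up 11 of the 46 rising (23.9%) and 2 of the 43 falling probe sets (4.65%) of the 36 genes, against 21.5% of rising and 18% of falling probe sets in the 521 genes. The falling _a_at probe sets were those of Reep3 and Rbm39. Probe sets ending in _s_at or _x_at, which can bind related transcripts, were present in 8 of the 36 genes: Csnk2a1, Smc6, Ube2d3, Ndufa3, Nsmf, Cct4, Nap1l1 and Oga. Without such probe sets 31 of the 36 genes still had opposite moves, and without _a_at probe sets as well 23 did.

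**Figure D4:**
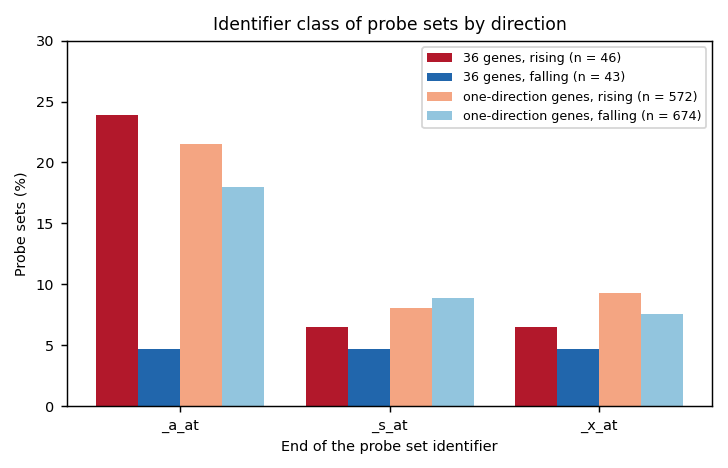
Share of probe sets (y axis, percent) by the end of the identifier (x axis), for rising and falling probe sets of the 36 genes and of the genes whose probe sets moved in 1 direction. For _a_at the share is 23.9% of rising and 4.65% of falling probe sets of the 36 genes, against 21.5% and 18% in the other genes; numbers of probe sets are in the legend.

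In 9 genes (Rala, Reep3, Ccnt2, Tmem30a, Mrpl1, Yme1l1, Nap1l1, Oga and Kcmf1) a rising and a falling probe set carried the same sequence accession in the platform's annotation. In 4 others, Nmt2, Csnk2a1, Pafah1b1 and Ndufa3, at least 1 probe set had no listed accession. Csnk2a1 and Pafah1b1 had no accession for any probe set, so sharing could not be seen in them. Any 2 probe sets of a gene, whatever their direction, shared a listed accession in 38.9% of the 36 genes and in 41.1% of the 521. RefSeq (assembly GRCm38.p6) listed all 557 genes. Of the 36 genes 25 (69.4%) had 2 or more curated transcripts, against 54.7% of the 521, with medians of 2.5 and 2. With predicted transcripts included, 6 of the 36 genes (16.7%) had 1 transcript, namely Rala, Ccnt2, Tmem30a, Ppp1r2, Cct4 and Ubn2, against 23.8% of the 521. In 3 of these 6, Rala, Ccnt2 and Tmem30a, the opposite probe sets shared an accession. Windows at annotated transcription starts were available for 30 of the 36 genes and for 415 of the 521. None of these differences in transcripts or windows was tested. Of those 30 genes 6 (20%) had 2 or more windows, against 22.2% of those 415, with a median of 1 in both. An entry in RefSeq does not show that a transcript is made in MSC.

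The direction given to these genes depends on how the probe sets are combined. Read by the brightest probe set (highest mean of the 5 arrays), 24 of the 36 genes rose and 12 fell. Of all 2190 named genes read in this way, 48.3% were higher in co-culture. The brightest probe set is picked by level, which also depends on how strongly its probes bind. By the mean of all probe sets, 16 of the 36 genes had a difference above 0 and 20 below. Ahnak fell by its brightest probe set, with -1.19, and had a mean of 0.73 over 3 probe sets. Rala rose by 0.70 in its brightest and had a mean of -0.82 over both.

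Genes of the machinery that sets transcript ends and exon choice were taken from 3 lists, each gene read by its brightest probe set, and set beside the 2190 named genes of the table, of which 48.3% were higher in co-culture and whose median difference was -0.61. All genes counted here passed limma, as did the whole table. Of 10 cleavage and polyadenylation factors in the table (23 were listed), 5 rose and 5 fell, with a median of 0.06. Nudt21, encoding a subunit of cleavage factor I that guides the choice of poly(A) site, fell by 1.42 ± 0.27 (SE); its group means ± SD were 6.89 ± 0.30 in MSC alone (n = 3) and 5.48 ± 0.42 in co-culture (n = 2). Cstf2 fell by 1.29 ± 0.27, while its partner in the cleavage stimulation factor, Cstf1, rose by 0.98 ± 0.20, and Fip1l1, which binds the poly(A) polymerase, rose by 1.22 ± 0.24.

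Of 15 splicing regulators in the table (67 were listed), 5 rose and 10 fell, with a median of -0.97. Of the 5, Rbm39, Srpk2 and Hnrnpdl also had falling probe sets; read by those, 2 genes of the list rose and 13 fell, and without these 3 genes 2 rose and 10 fell, with a median of -1.04. Tial1, encoding a U-rich RNA-binding protein, fell by 2.47 ± 0.25 (SE), from 6.60 ± 0.32 to 4.13 ± 0.23. Sfpq fell by 2.40 ± 0.50, with -3.18 without co-culture replicate 1 and -1.61 without replicate 2. Mbnl1, encoding a muscleblind splicing regulator, fell by 1.65 ± 0.30, and Rbm47 rose by 1.81 ± 0.37. Of 12 core spliceosome genes (48 were listed) 10 rose and 2 fell, with a median of 0.75. The falling ones were Sf3b1, by -2.20 ± 0.33 from 7.49 ± 0.40 to 5.29 ± 0.53, and Ddx46, by -1.11 ± 0.27, both genes that act on the branch point. Sf3b4 rose by 1.09 ± 0.23 and Luc7l2 by 1.02 ± 0.23. After quantile normalization the 37 genes of these lists had the same direction, but 7 no longer passed limma: Scaf8, Srsf10, Rbm39, Srpk2, Sf1, Sf3a2 and Crnkl1. Leaving out 1 array lost 0 to 6 of the 37 calls. Any link between these genes and the 36 was not tested.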

How the data were processed

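The authors deposited log2 values per probe set, computed with RMA (background correction, quantile normalization and probe summary; version not given in the sources used here), per the submitters' processing notes. RMA gives no detection call. The table holds 3373 probe sets and not a whole array, and how these were selected is not stated in the labels. The platform's annotation gave 1 symbol for 3013 probe sets, several for 69 and none for 291. Groups came from the sample titles. limma 3.58.1 (R 4.3.3; lmFit and eBayes, all 5 arrays, no covariates, two-sided, Benjamini-Hochberg adjustment over all probe sets, threshold 0.05) gave differences and moderated SE, and was tested on simulated data. The number of arrays limits the precision, and selection for separated groups favours large differences and small errors. Every gene of the rule is named, and the 15 with the largest gap are given by array. The genes, role groups and lists were chosen with earlier results of these data known. Alternatives covered left-out arrays, scaling, moderation, dim probe sets, probe set classes, the number of tests and the replicate number.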

Additional observations from a re-analysis of the deposited data

How the results depend on the processing

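The count of 36 genes could not change when 1 array was left out (36 to 36 genes), with a replicate block or with arrays centred on their medians: the groups did not overlap in any probe set, and centring shifts co-culture by 0.16, less than the smallest absolute difference of 0.47. It therefore says nothing about stability. After quantile normalization, which could change a sign, the count was also 36. Without the dimmest 25% of probe sets 23 genes remained, with both sides at least 2-fold 4, and with only probe sets whose identifiers end in plain _at 23. These settings remove probe sets by construction. Among the genes lost with the dimmest 25% were Ahnak, Ids and Rala, which had the largest gaps, and Ndufa3 and Wac. With the p-values adjusted for 15 times the number of tests, limma called 205 higher and 210 lower probe sets of the table. It then called 6 of the 89 probe sets of the 36 genes (6.74%, against 12.3% of the table). Of the listed RNA factors it called 0 rising and 2 falling ones, Tial1 and Hnrnpk. The replicate block, fitted because the groups share replicate numbers, left 1636 higher and 1729 lower calls of the table. The differences of the 89 probe sets chose the genes, so calls among them are no test; they numbered 77 to 89 with 1 array left out, 85 with centred arrays, 80 after quantile normalization, 87 without moderation, 70 without the dimmest 25% and 89 with the block. Same-numbered arrays had correlated deviations (0.221 and 0.32), but the labels do not say that a number marks a shared culture. Deviations were taken from the group means, so those of the 2 co-culture arrays mirror each other. The 2 correlations are therefore not independent. A lone co-culture array was assumed to vary like the others. Depth here is signal: 11 of the 89 probe sets lay under 6 in both groups. They belonged to Cct4, Cdadc1, Ids, Nsmf, Ppp1r2, Rfx3, Smchd1, Yme1l1 and Zfp800.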

Other observations

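Opposite moves were also found in 4 genes of the symbol families left out above, Exoc3, Hnrnpdl, Kif1b and Usp7. Kif1b, encoding a kinesin motor with different cargo-binding forms, rose by 1.48 ± 0.32 (SE) in 1451762_a_at, which read 5.55, 6.08 and 6.07 in MSC alone and 6.94 and 7.81 in co-culture. Its other probe set, 1455182_at, fell by 1.48 ± 0.30 from 8.23 ± 0.41 (SD, n = 3) to 6.76 ± 0.38 (SD, n = 2). Hnrnpdl, encoding an RNA-binding protein, had 2 probe sets that rose by 1.34 and 1.21 and 3 that were lower, by -0.80, -0.83 and -0.85. A rising and a falling probe set of this gene carried the same accession. Exoc3, a subunit of the exocyst, rose by 0.65 and fell by 1.33, and Usp7, a deubiquitinase gene, rose by 0.69 and fell by 0.62. The rising probe sets of Exoc3 and Usp7 had no listed accession.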
